A study of Mus musculus with 12 samples.

Results

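The 9 genes described here are Trp53, which encodes the transcription factor p53, 7 genes that p53 is known to switch on (Mdm2, Cdkn1a, Ccng1, Trp53inp1, Bax, Eda2r and Phlda3), and Gdf15, a secreted stress hormone. They were chosen by name out of 47729 genes counted, with earlier results of these data known. All 9 had enough reads in mouse liver to be tested. Shares of these genes and of the gene lists below are set beside those of all genes as descriptions only, because the choice was not blind to the data. Liver RNA was sequenced from 12 male C57BL/6 mice, 4 in each of 3 groups. Healthy mice (labelled WT and Naive_vehicle) received vehicle. STAM mice had a single injection of streptozotocin, a toxin of the insulin-producing islet cells, on day 2 of life and a high-fat diet from week 4. They were then dosed orally once daily from week 6 to week 9 with vehicle (STAM-vehicle) or with 10 mg/kg of I-BET151 (STAM-I-BET151), an inhibitor of the bromodomains of the BET proteins, which read acetylated histones. The injection and the diet are joined in both STAM groups, so their shares cannot be told apart, and I-BET151 was not given to healthy mice. By the study's Methods the vehicle was methylcellulose, while I-BET151 was suspended in hydroxypropyl methylcellulose with Tween. Drug and formulation therefore differ together between the STAM groups and cannot be told apart.

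p53 is kept low in resting cells because MDM2, itself a p53 target, marks it for destruction. Stress that damages DNA or disturbs the nucleolus releases p53 from this loop, largely at the level of the protein, so that its messenger RNA need not move with its activity. Its targets then stop the cell cycle (p21, encoded by Cdkn1a), tip mitochondria towards cell death (Bax), brake AKT signalling (Phlda3) or act as a receptor at the cell surface (Eda2r, which binds the A2 form of ectodysplasin). Gdf15 answers to p53 and also to the ATF4 and CHOP arm of the integrated stress response, and the protein acts on appetite through a receptor in the hindbrain. The liver is one of its main sources in metabolic disease.

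The stretch of 250 bases upstream of the RefSeq start (GRCm38.p6) was listed for 8 of the 9 genes, and not for Trp53inp1. It was searched on both strands for the p53 half-site, the motif to which each pair of p53 subunits binds. At least 1 half-site lay in this stretch in 5 of the 8 genes, Trp53, Cdkn1a, Mdm2, Ccng1 and Bax, against 7.13% of 32851 mouse promoters. The sites are shown with 15 bases on either side, because they are what these genes share in sequence, and the capitals mark the half-sites.
Trp53, chr11:69580269-69580308, + strand: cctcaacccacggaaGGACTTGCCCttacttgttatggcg
Cdkn1a, chr17:29090891-29090952, + strand: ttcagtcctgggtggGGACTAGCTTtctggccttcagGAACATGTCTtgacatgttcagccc
Mdm2, chr10:117710920-117710959, - strand: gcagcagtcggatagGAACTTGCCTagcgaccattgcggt
Ccng1, chr11:40755447-40755486, - strand: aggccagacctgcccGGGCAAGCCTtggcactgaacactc
Bax, chr7:45467075-45467114, - strand: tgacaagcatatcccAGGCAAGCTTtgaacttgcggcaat
The stretch of Cdkn1a at its first listed start held a pair, 12 bases apart, which begin 73 and 51 bases before the start. A pair of half-sites no more than 13 bases apart was present in 0.0639% of all promoters.

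No half-site lay in this window upstream of Eda2r, Phlda3 or either listed start of Gdf15. The windows of Eda2r and Phlda3 are shown because these 2 genes differed most between STAM and healthy livers.
Eda2r, chrX:97377210-97377459, - strand: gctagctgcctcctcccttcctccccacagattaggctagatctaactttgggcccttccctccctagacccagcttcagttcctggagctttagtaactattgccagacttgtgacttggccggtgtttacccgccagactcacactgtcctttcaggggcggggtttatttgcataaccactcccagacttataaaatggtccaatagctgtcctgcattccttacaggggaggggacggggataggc
Phlda3, chr1:135765835-135766084, + strand: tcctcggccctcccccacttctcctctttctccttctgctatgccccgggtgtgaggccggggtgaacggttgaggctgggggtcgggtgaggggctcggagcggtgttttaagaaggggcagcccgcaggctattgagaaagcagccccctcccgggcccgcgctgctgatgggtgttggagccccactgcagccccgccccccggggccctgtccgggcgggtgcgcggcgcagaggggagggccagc
These matches describe letters in a window and say nothing of binding in these livers. The letters TGATGNAA, of the kind that ATF4 with a C/EBP partner can bind, were in none of the windows of the 8 genes and in 3.45% of all promoters.

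The unit below is CPM, the reads of a gene per 1000000 reads of a library after TMM normalization, which corrects for a few very abundant genes taking a larger share of 1 library. Total counts ranged from 34711229 to 53365596 per mouse. The library of STAM-I-BET151 mouse 3 stood apart before any gene was compared. Its 10 most abundant genes took 7.95% of its reads, against 13.5% to 18.0% in the other 11 mice. Its mitochondrial share was 2.71%, against 4.51% to 7.30%. The summed level of 6 hepatocyte markers was 20526 CPM in it and from 50657 to 122014 CPM in the others, and that of 4 nuclear-retained RNAs was 4801 CPM against 824 to 2121 CPM. The study left out 1 unnamed I-BET151 sample for low gene counts, and which one it was could not be told, so all 12 mice were used and results that turn on mouse 3 are given with and without it. The groups were otherwise taken as labelled, and nothing says whether mice of a group shared a litter or cage.

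Per kb of exon, the scale on which levels of different genes can be compared, the 9 genes ranged over more than 2 orders of magnitude in healthy livers. Trp53inp1 and Cdkn1a were the most abundant, at 23.0 ± 9.85 and 16.1 ± 10.7 CPM per kb (SD, n = 4). Ccng1, Bax, Mdm2 and Trp53 followed between 9.34 and 7.31 CPM per kb, and the mean ± SD ranges of neighbours in this order overlapped. Gdf15 stood clear below them at 2.07 ± 0.749 CPM per kb, then Phlda3 at 0.466 ± 0.133, and Eda2r was lowest at 0.0435 ± 0.0376 CPM per kb. In STAM-vehicle livers the lowest 3 kept this order, and Eda2r at 0.478 ± 0.0581 CPM per kb reached the level that Phlda3 had in healthy mice. In STAM-I-BET151 livers the first 7 genes in order ran from Bax at 17.3 ± 2.63 to Gdf15 at 8.41 ± 7.64 CPM per kb. Among them the mean ± SD ranges of neighbours overlapped.

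**Figure D1:**
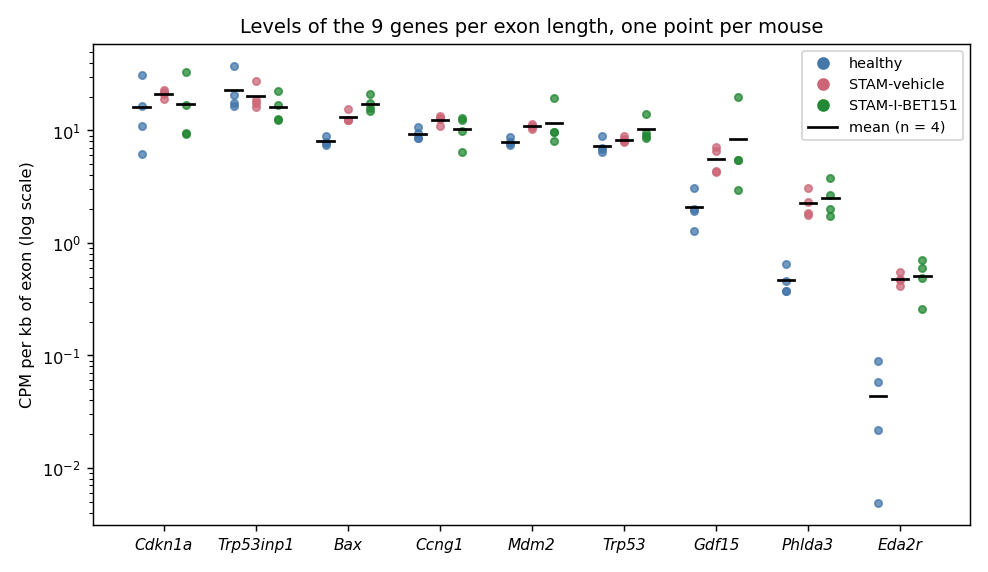
Level of each of the 9 genes in CPM per kb of exon on a log axis, with genes ordered by their mean in STAM-vehicle livers. Points are mice and black lines are means of 4, and the blue healthy points of Eda2r and Phlda3 sit below all STAM points of the same gene.

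The first comparison, STAM-vehicle against healthy livers, asked what the disease model itself did to these genes. Eda2r, Phlda3 and Bax were higher in STAM-vehicle livers, by 11.1-fold, 4.79-fold and 1.64-fold. Trp53 itself, at 1.14-fold, did not pass the test, nor did Cdkn1a at 1.32-fold. By edgeR's quasi-likelihood test at an adjusted p of at most 0.05, 3 of the 9 genes passed, all higher. Among all 16823 genes tested, 5.72% were called higher. The median log2 fold change was 0.46 over the 9 genes and 0.01 over all genes tested.

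Eda2r was close to absent in healthy livers. It had 0.128, 0.344, 0.523 and 0.0288 CPM in the 4 healthy mice, which rest on 6, 13, 18 and 1 reads. STAM-vehicle mice had 2.76, 2.44, 3.27 and 2.80 CPM, from 115 to 169 reads each. Every STAM-vehicle mouse lay above every healthy mouse, and the lowest STAM-vehicle value was 4.66 times the highest healthy value. The log2 fold change was 3.47 ± 0.50 (SE, adjusted p = 0.00128 by edgeR). Eda2r lies on chromosome X (97333840 to 97377216, GRCm38, - strand, protein coding, identifier ENSMUSG00000034457), so that the mice, being male, carry 1 copy.

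Phlda3, whose protein competes with AKT for membrane lipids, had 1.02, 0.583, 0.581 and 0.719 CPM in healthy mice. It had 2.91, 3.62, 4.78 and 2.74 CPM in STAM-vehicle mice. The groups did not overlap, with the lowest STAM-vehicle mouse at 2.68 times the highest healthy mouse. The log2 fold change was 2.26 ± 0.30 (adjusted p = 0.000873 by edgeR). The gene lies at 135766119 to 135769136 of chromosome 1 (ENSMUSG00000041801).

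Bax, a pore-forming member of the BCL2 family, is expressed at a far higher level and differed less. It had 14.2, 12.3, 11.6 and 12.4 CPM in healthy mice and 19.5, 19.5, 24.6 and 19.5 CPM in STAM-vehicle mice. The groups did not overlap, and STAM-vehicle mouse 3 stood above the other 3, which agreed closely. The log2 fold change was 0.72 ± 0.13 (adjusted p = 0.00626 by edgeR). Bax lies at 45461697 to 45466898 of chromosome 7 (ENSMUSG00000003873) and shares 192 exonic bases with Gm45808 on the same strand, which is not among the genes counted.

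Gdf15 was higher in every STAM-vehicle mouse and missed the threshold. It had 5.70, 3.55, 3.72 and 2.36 CPM in healthy mice and 12.1, 8.06, 13.3 and 7.87 CPM in STAM-vehicle mice. The groups did not overlap, the lowest STAM-vehicle value being 1.38 times the highest healthy value. The log2 fold change was 1.42 ± 0.48 (adjusted p = 0.0926 by edgeR). Gdf15 lies at 70629393 to 70632456 of chromosome 8 (ENSMUSG00000038508).

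Mdm2, the p53 ubiquitin ligase, had 39.9, 39.0, 44.4 and 37.4 CPM in healthy mice and 58.5, 54.2, 52.3 and 55.7 CPM in STAM-vehicle mice. Ccng1, which encodes cyclin G1, had 29.9, 33.4, 37.6 and 30.4 CPM in healthy mice and 44.1, 45.5, 47.2 and 38.4 CPM in STAM-vehicle mice. In both genes all STAM-vehicle mice lay above all healthy mice, narrowly for Ccng1, where the lowest STAM-vehicle value was 1.02 times the highest healthy one. The log2 fold changes of 0.46 ± 0.22 for Mdm2 (adjusted p = 0.246 by edgeR) and 0.42 ± 0.18 for Ccng1 (adjusted p = 0.198) did not pass. With Eda2r, Phlda3, Bax and Gdf15 these made 6 of 9 genes without overlap between the groups, all higher in STAM-vehicle, where 14.2% of all genes tested were higher without overlap.

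Which of these genes passed depended on a mouse outside the comparison. All 12 mice shared 1 estimate of spread for each gene in the fit, STAM-I-BET151 mouse 3 included. Without that mouse, 6 of 9 genes passed, with Mdm2 (log2 fold change 0.44, adjusted p = 0.00439), Ccng1 (0.40, adjusted p = 0.0205) and Gdf15 (1.40, adjusted p = 0.00497) added by edgeR, where 22.3% of all genes were called. Eda2r, Phlda3 and Bax passed in each of 12 fits that left out 1 mouse.

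Trp53, Cdkn1a and Trp53inp1 overlapped between the groups. Trp53 had 35.9, 28.4, 26 and 27.9 CPM in healthy mice and 31.7, 32.4, 36.4 and 34.0 CPM in STAM-vehicle mice, with healthy mouse 1 above 3 of the 4 STAM-vehicle mice (log2 fold change 0.18 ± 0.16, adjusted p = 0.537 by edgeR). Cdkn1a was scattered among healthy mice, which had 58.6, 38.8, 110 and 22 CPM. STAM-vehicle mice had 77.5, 82.0, 67.7 and 74.6 CPM, a narrow band that lay inside the healthy range (log2 fold change 0.40 ± 0.45, adjusted p = 0.648). The coefficient of variation of Cdkn1a was 66.4% in healthy and 7.95% in STAM-vehicle mice.

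Trp53inp1, a cofactor of p53 that also takes part in autophagy, was the single gene of the 9 with a lower mean in STAM-vehicle than in healthy livers. It had 113, 134, 243 and 106 CPM in healthy mice and 180, 105, 115 and 121 CPM in STAM-vehicle mice. Healthy mouse 3 held the highest value of both Trp53inp1 and Cdkn1a in its group, and without that mouse the log2 fold change of Trp53inp1 turned from -0.19 to 0.14. Neither value passed the test.

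**Figure D2:**
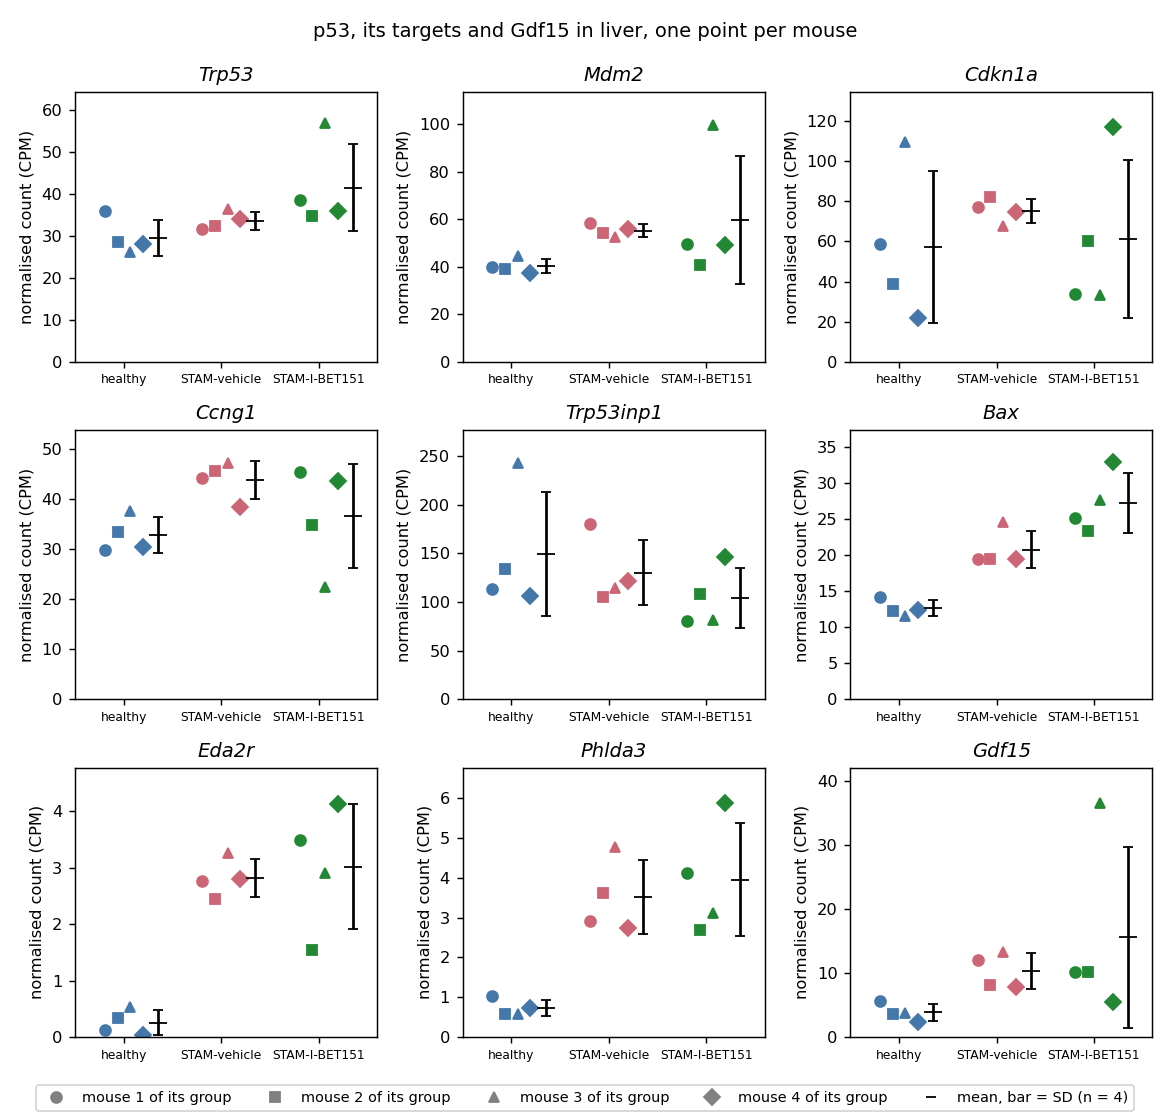
Normalised counts (CPM) of the 9 genes in each mouse, with the mean and SD of 4 mice to the right of each group. Eda2r, Phlda3, Bax, Gdf15, Mdm2 and Ccng1 separate healthy from STAM-vehicle mice, and the green triangle marks STAM-I-BET151 mouse 3, the highest of all 12 for Trp53, Mdm2 and Gdf15.

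A list of 31 other p53 targets was examined beside these genes, of which 30 could be tested. In STAM-vehicle livers 7 rose and 0 fell, where 5.72% of all genes tested were called higher. An unadjusted p under 0.05 was reached by 15 of the 30 and by 22.3% of all genes, and the list had a median log2 fold change of 0.19. Psrc1, which encodes a microtubule-binding protein, had 3, 3, 5 and 1 reads in healthy mice and 39, 74, 131 and 86 reads in STAM-vehicle mice (log2 fold change 4.38 ± 0.55, adjusted p = 0.000652 by edgeR). Trp53cor1, the long noncoding RNA next to Cdkn1a also known as lincRNA-p21, had 8 reads over the 4 healthy mice and 163 over the 4 STAM-vehicle mice (3.96 ± 0.59, adjusted p = 0.00176). The fold changes of both rest on these few healthy reads.

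The other 5 that rose have roles in death, repair and RNA turnover. Tnfrsf10b, the death receptor for TRAIL, went from 0.511 ± 0.0864 to 2.08 ± 0.480 CPM (SD, n = 4) and Gadd45a, a DNA damage gene, from 1.82 ± 0.606 to 6.01 ± 2.43 CPM. Zmat3, an RNA-binding protein, had from 8.95 to 11.1 CPM in healthy mice and from 19.5 to 21 CPM in STAM-vehicle mice, a log2 fold change of 0.98 ± 0.15 with little spread in either group. Aen, an apoptosis nuclease, rose from 15.5 ± 1.40 to 25.8 ± 3.46 CPM and Apaf1, the apoptosome scaffold, from 3.67 ± 0.368 to 5.84 ± 0.715 CPM. Their adjusted p by edgeR lay between 0.00103 for Tnfrsf10b and 0.0404 for Apaf1. When 1 mouse was left out in turn, Apaf1 passed in 3 of 12 fits and Aen in 9, and the other 5 of the 7 in all 12. The remaining 23 of the 30 did not pass, so that the list as a whole held some genes far above healthy levels and more for which no difference was detected. Without STAM-I-BET151 mouse 3, 12 of the 30 were called higher and 2 lower, where 22.3% of all genes were called in either direction. With sequencing lane as a covariate, Psrc1 alone of the list and Eda2r alone of the 9 passed in this comparison, where 0.22% of all genes were called. Lane 8 held only healthy mice 2 and 3, and lane 4 only STAM-vehicle mouse 2. These mice therefore do not bear on differences between groups in the fit with lane. Why genes no longer passed in it was not tested. Among genes that no longer passed, log2 fold changes were 1.75 for Phlda3, 0.58 for Bax, 1.59 for Tnfrsf10b, 1.52 for Gadd45a and 0.76 for Zmat3. Each kept the sign it had without lane. Trp53cor1, Aen and Apaf1 did not pass with lane either. Over all settings but the edgeR fits that left out 1 mouse, their lowest log2 fold changes were 2.72, 0.32 and 0.38. The fit of the 3 groups without lane put them at 3.96, 0.73 and 0.67.

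**Figure D3:**
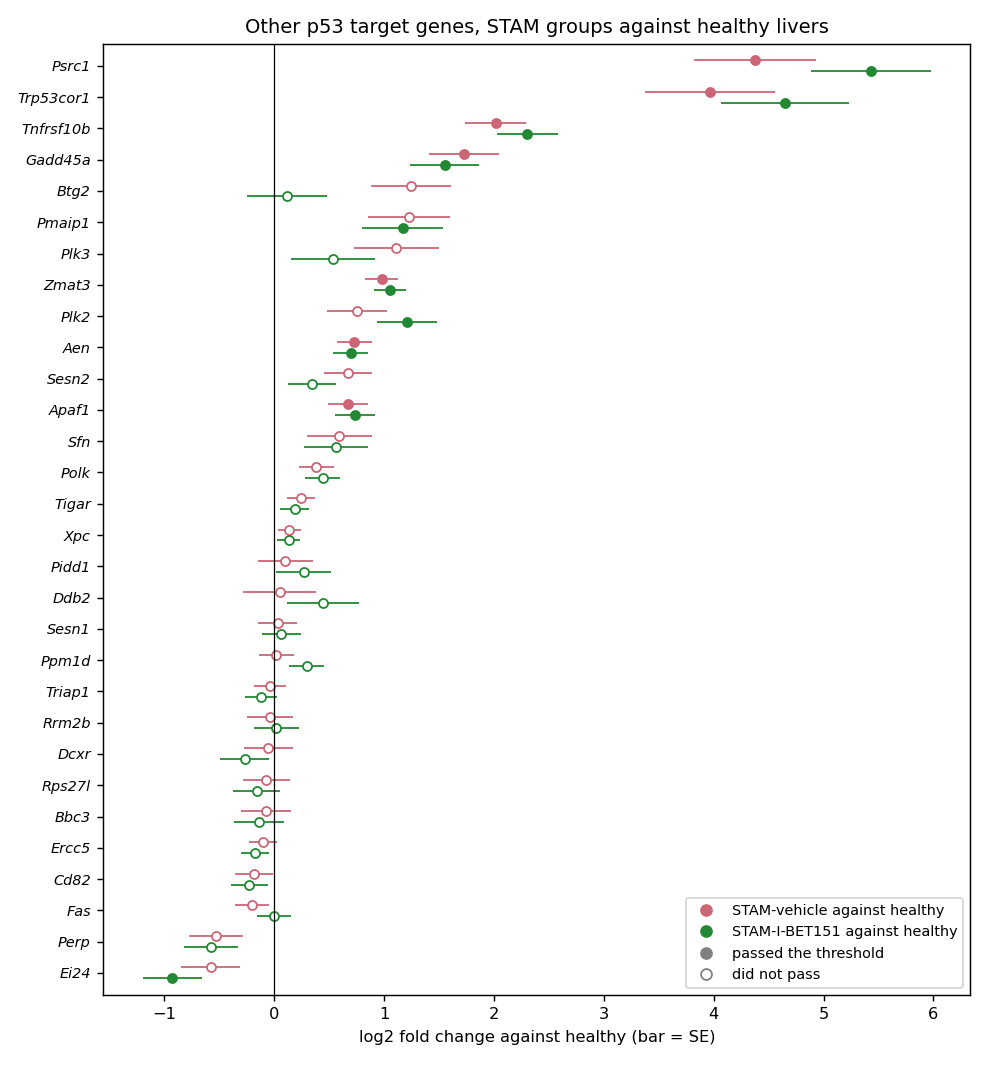
Log2 fold change against healthy livers, with SE, of the 30 other p53 targets tested, ordered by the STAM-vehicle value. Filled points passed an adjusted p of 0.05, and Psrc1 and Trp53cor1 lie above 3.5 in both STAM groups.

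The second comparison, STAM-I-BET151 against STAM-vehicle livers, asked whether the BET inhibitor moved these genes within the disease model. At an adjusted p of at most 0.1, 0 of the 9 genes passed by edgeR, against 0.351% of all genes tested, and 1 of 9 had an unadjusted p under 0.05, as did 8.68% of all genes. DESeq2 also called 0, and limma-voom with sample weights called 1. No gene of the 9 separated the groups, where 5.04% of all genes did. The 9 genes had a median log2 fold change of 0.12, and all genes tested one of 0.02.

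Bax had the smallest p. STAM-I-BET151 mice had 25.1, 23.4, 27.6 and 32.9 CPM, of which 3 of 4 lay above all STAM-vehicle mice and mouse 2 fell below STAM-vehicle mouse 3 alone. The log2 fold change was 0.39 ± 0.13 (unadjusted p = 0.0101, adjusted p = 0.380 by edgeR). Bax passed with limma-voom (0.48, adjusted p = 0.0330, where 7.16% of all genes were called) and with DESeq2 without STAM-I-BET151 mouse 3 (0.40, adjusted p = 0.0895, 8.27% of all genes).

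For Eda2r and Phlda3 no difference between the STAM groups was detected. Eda2r had 3.49, 1.54, 2.90 and 4.14 CPM in STAM-I-BET151 mice, which spread on both sides of the STAM-vehicle mice (log2 fold change 0.10 ± 0.40, adjusted p = 0.978 by edgeR). Phlda3 had 4.13, 2.68, 3.12 and 5.88 CPM (0.17 ± 0.27, adjusted p = 0.922). For both, mouse 4 was the highest and mouse 2 the lowest of the STAM-I-BET151 group, and without mouse 4 both estimates turned to -0.08.

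For Gdf15 and Mdm2 the direction turned on a single mouse. Gdf15 had 10.2, 10.1, 36.5 and 5.49 CPM, and mouse 3 stood at 4.26 times the mean of the other 3. Mdm2 had 49.5, 40.6, 99.8 and 49.1 CPM, mouse 3 being at 2.15 times the mean of the others. Without mouse 3 the log2 fold change of Gdf15 turned from 0.60 to -0.26 and that of Mdm2 from 0.12 to -0.24, and none of these passed. In the same library hepatocyte markers were low and nuclear-retained RNAs high, as given above, and their part in these values was not tested.

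Trp53 was also highest in mouse 3, with 38.6, 34.8, 56.9 and 35.9 CPM in the STAM-I-BET151 group (log2 fold change 0.31 ± 0.16, adjusted p = 0.631 by edgeR). Ccng1 was lowest there, with 45.4, 34.8, 22.5 and 43.5 CPM (-0.26 ± 0.18, adjusted p = 0.763). Mouse 3 was thus the highest of all 12 for Trp53, Mdm2 and Gdf15 and the lowest of all 12 for Ccng1. Cdkn1a was again scattered, at 33.7, 60.3, 33.3 and 117 CPM, from below to above the STAM-vehicle band (-0.30 ± 0.45, adjusted p = 0.912). Trp53inp1 had 80.9, 108, 81.1 and 146 CPM (-0.32 ± 0.28, adjusted p = 0.816).

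Of the 30 other p53 targets, 0 passed between STAM-I-BET151 and STAM-vehicle by edgeR and 2 had an unadjusted p under 0.05, against 8.68% of all genes, with a median log2 fold change of -0.03. DESeq2 also called 0, and limma-voom called 3, where it called 7.16% of all genes. The 2 genes, named after their values were seen, were Psrc1 and Btg2. Psrc1 had 3.91, 1.20, 4.45 and 4.34 CPM in STAM-I-BET151 mice and from 0.938 to 2.53 CPM in STAM-vehicle mice, and 3 of the 4 STAM-I-BET151 mice lay above all STAM-vehicle mice (log2 fold change 1.05 ± 0.39, adjusted p = 0.431 by edgeR). Btg2, an antiproliferative gene, had 16.5, 15.9, 19.9 and 44.7 CPM in STAM-I-BET151 mice and 34.1, 41.6, 58.0 and 78.5 CPM in STAM-vehicle mice, so that mouse 4 alone reached into the STAM-vehicle range (-1.13 ± 0.37, adjusted p = 0.354). Against healthy mice, which had from 13 to 33.3 CPM, Btg2 was at 1.25 ± 0.37 in STAM-vehicle mice without overlap and did not pass (adjusted p = 0.0570). Tnfrsf10b, Gadd45a, Zmat3, Aen and Apaf1 all had STAM-I-BET151 values that overlapped those of STAM-vehicle mice.

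The third comparison set STAM-I-BET151 against healthy livers. It shares its mice with the other 2 comparisons, so its values are not independent of theirs. Eda2r, Phlda3, Bax and Gdf15 were higher in STAM-I-BET151 livers, 4 of 9 genes, where 9.88% of all genes were called higher at an adjusted p of at most 0.05 by edgeR. The log2 fold changes were 3.58 ± 0.50 for Eda2r, 2.43 ± 0.30 for Phlda3, 1.11 ± 0.13 for Bax and 2.02 ± 0.49 for Gdf15, with adjusted p of 0.000814, 0.000380, 0.000325 and 0.0154. Eda2r, Phlda3 and Bax did not overlap, 3 of 9, where 10.9% of all genes were higher without overlap.

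Bax was 1.64-fold above healthy in the STAM-vehicle and 2.16-fold in the STAM-I-BET151 group. Gdf15 was 4.05-fold above healthy, although STAM-I-BET151 mouse 4, at 5.49 CPM, lay just under healthy mouse 1 at 5.70 CPM. Without mouse 3 its log2 fold change was 1.14 and still passed (adjusted p = 0.0174 by edgeR), and it passed in 11 of 12 fits that left out 1 mouse. Trp53 came near the threshold (0.49 ± 0.16, adjusted p = 0.0539), as did Mdm2 (0.57 ± 0.22, adjusted p = 0.0937), and without mouse 3 the estimate for Trp53 was 0.29 and that for Mdm2 0.20. Ccng1, Cdkn1a and Trp53inp1 had log2 fold changes of 0.16, 0.09 and -0.52, which did not pass. With lane as a covariate Eda2r alone of the 9 passed (log2 fold change 5.02, adjusted p = 0.00569 by edgeR), where 0.505% of all genes were called, and Phlda3 was at 2.07 (adjusted p = 0.0740) and Bax at 0.99 (adjusted p = 0.0605).

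**Figure D4:**
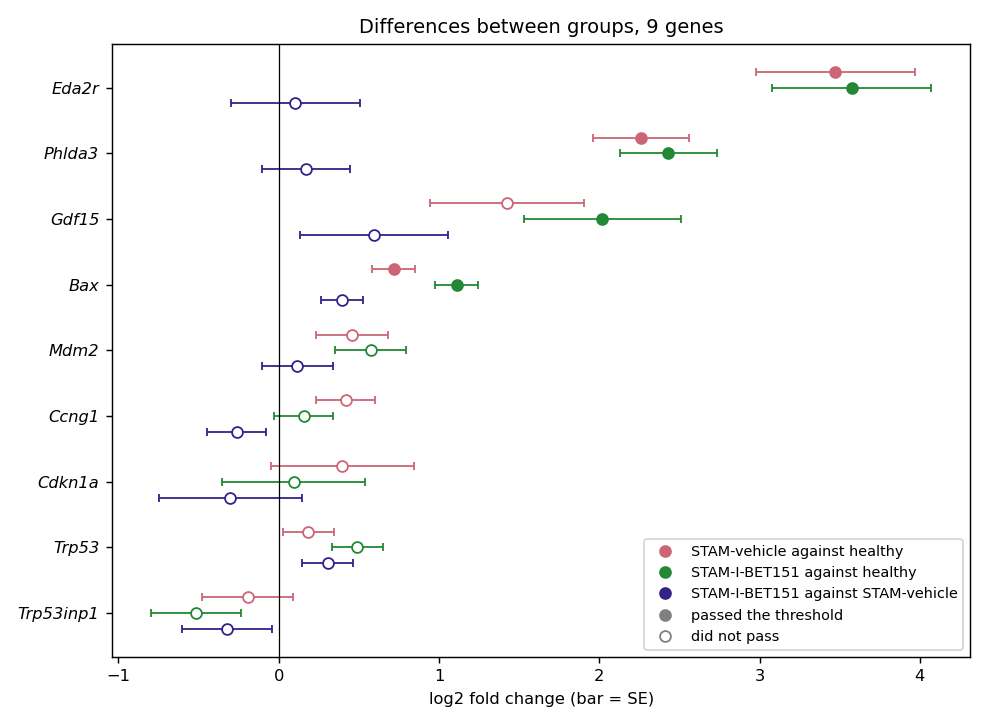
Log2 fold change with SE of the 9 genes in the 3 comparisons, which share mice. Filled points passed (adjusted p of 0.05 against healthy, 0.1 against STAM-vehicle), and Eda2r, Phlda3 and Bax are filled in both comparisons with healthy livers.

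Among the 30 other p53 targets tested, 9 were called higher and 1 lower in STAM-I-BET151 than in healthy livers. Of all genes tested, 9.88% were called higher. All 7 genes that rose in STAM-vehicle were among the 9, with Psrc1 at 5.43 ± 0.55, Trp53cor1 at 4.65 ± 0.58 and Tnfrsf10b at 2.31 ± 0.28 on the log2 scale. Plk2, a polo-like kinase, was called here (1.21 ± 0.27, adjusted p = 0.0115 by edgeR). It was at 0.75 in STAM-vehicle against healthy (adjusted p = 0.115), and the STAM groups did not pass the test against each other. The gene that was lower was Ei24, a p53-induced autophagy gene, named because it was alone and so chosen after its value was seen. It had 382, 354, 413 and 319 CPM in healthy mice and 166, 232, 97.4 and 278 CPM in STAM-I-BET151 mice, lowest in mouse 3 (-0.93 ± 0.27, adjusted p = 0.0338 by edgeR), and it passed in 7 of 12 fits that left out 1 mouse.

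Upstream of p53, 13 of 16 regulators could be tested, among them Mdm4, Atm, Chek1 and Ep300. By edgeR 0 passed in any comparison, with 3, 0 and 4 at an unadjusted p under 0.05 in the order STAM-vehicle against healthy, STAM-I-BET151 against STAM-vehicle and STAM-I-BET151 against healthy. Over all genes tested the shares at that p were 22.3%, 8.68% and 32.6%, so the counts of regulators lay near or under the background. Cdkn2a and the p53 relatives Trp63 and Trp73 were not tested, having at most 10, 14 and 4 reads in any mouse. Of 5 other inhibitors of cyclin-dependent kinases, 0 passed in any comparison, with 2, 1 and 2 at an unadjusted p under 0.05.

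In the BCL2 family, 13 relatives of Bax were tested. Hrk, a BH3-only gene that promotes cell death, rose from 0.213 ± 0.110 CPM in healthy to 0.856 ± 0.364 CPM in STAM-vehicle livers (log2 fold change 1.98 ± 0.52, adjusted p = 0.0359 by edgeR) and was at 1.55 ± 0.836 CPM in STAM-I-BET151 livers. Bak1, another pore-forming member, passed in STAM-I-BET151 against healthy, at 18.7 ± 2.5 against 12.9 ± 0.926 CPM (0.53 ± 0.13, adjusted p = 0.0137). The other 11 did not pass in any comparison. Against healthy livers 1 of the 13 was called higher in STAM-vehicle, where 5.72% of all genes tested were. In STAM-I-BET151 livers it was 2 of the 13, where 9.88% of all genes were called higher. With 1 mouse left out, Hrk passed in 5 of 12 fits for STAM-vehicle against healthy and Bak1 in 9 of 12 for STAM-I-BET151 against healthy.

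Gfral, the receptor of GDF15, had 0 reads in all 12 mice, where a count of 0 limits only what these libraries could detect, and its co-receptor Ret had at most 6. Eda, the ligand of the EDA2R protein, was at 3.02 ± 0.821 CPM in healthy and 5.94 ± 1.29 CPM in STAM-vehicle livers (log2 fold change 0.97 ± 0.26, adjusted p = 0.0368 by edgeR), and it passed in 5 of 12 fits that left out 1 mouse. The counts do not tell the 2 ectodysplasin isoforms apart. STAM-I-BET151 mice had 2.45, 2.89, 2.24 and 4.39 CPM of Eda, all under the lowest STAM-vehicle mouse at 4.60 CPM, a difference that did not pass the test.

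The ATF4 and CHOP targets were examined because Gdf15 belongs to that programme as well. All 11 were tested, and 4 rose in STAM-vehicle livers while 0 fell, where 5.72% of all genes were called higher. The count was 0 with lane as a covariate and from 2 to 6 with 1 mouse left out. Atf3 had 1.11, 1.43, 1.02 and 0.489 CPM in healthy mice and 4.95, 4.72, 11.1 and 6.54 CPM in STAM-vehicle mice (log2 fold change 2.75 ± 0.36, adjusted p = 0.000790 by edgeR). Asns, asparagine synthetase, was higher by 1.74 ± 0.32, Trib3 by 0.85 ± 0.21 and Atf4 by 0.43 ± 0.12. Atf3 and Asns passed in all 12 fits that left out 1 mouse, Trib3 in 6 and Atf4 in 2. The median over the list was 0.85. Between STAM-I-BET151 and STAM-vehicle 0 of 11 passed, with 1 at an unadjusted p under 0.05.

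Against healthy livers 6 of the 11 rose in STAM-I-BET151 livers, where 9.88% of all genes were called higher. They were those 4 with Chac1, a glutathione-degrading enzyme, and the lipoprotein receptor Vldlr. Chac1 was at 13, 4.07, 2.01 and 19.4 CPM in STAM-I-BET151 mice and from 1.01 to 1.98 CPM in healthy mice. In mouse 3, where Gdf15 was highest, the ATF4 and CHOP targets went different ways. Chac1, Trib3 (30.7 CPM) and Asns (8.55 CPM) were the lowest of the STAM-I-BET151 group. Atf4, at 143 CPM, was the highest of all 12 mice and Atf3, at 6.8 CPM, the highest of the group. Vldlr, at 9.43 CPM, was neither the highest nor the lowest of the group. The summed level of the 11 genes was 315 CPM in that mouse, within the group's range of 263 to 326 CPM. Atf4 alone made up 143 CPM of that sum. The sums were from 257 to 333 CPM in STAM-vehicle and from 163 to 214 CPM in healthy mice. Ddit3, which encodes CHOP, had means of 11.1, 16.2 and 13.9 CPM in healthy, STAM-vehicle and STAM-I-BET151 livers and did not pass.

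Cell cycle genes that p21 is known to hold down were low throughout, and 11 of 12 could be tested. All 11 had log2 fold changes above 0 in STAM-vehicle against healthy livers, with a median of 0.70, and 1 passed, Cdc20, at 0.907 ± 0.147 against 0.329 ± 0.123 CPM (1.45 ± 0.33, adjusted p = 0.0176 by edgeR, and passing in 9 of 12 fits that left out 1 mouse). All 11 were below 0 in STAM-I-BET151 against STAM-vehicle livers, with a median of -0.59, and 0 passed. An unadjusted p under 0.05 was reached by 7 of the 11 in the first of these comparisons and by 4 in the second. Over all genes tested the shares at that p were 22.3% and 8.68%, and 50.9% and 53.9% were above 0. The summed level of the 12 genes was 13.5 CPM in STAM-I-BET151 mouse 3, within the STAM-vehicle range of 11.4 to 15.1 CPM. The median sum of the STAM-I-BET151 group was 6.94 CPM. The sum of mouse 3 does not stand for each gene. Top2a, Cdk1 and Cdc20 were lower in every STAM-I-BET151 mouse, mouse 3 included, than in every STAM-vehicle mouse. They were 3 of the 11 genes, where 5.04% of all genes tested separated the groups. Cdc20 was at 0.359 CPM in mouse 3, against 0.764 to 1.06 CPM in STAM-vehicle mice. Cdkn1a did not pass in either comparison.

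These are values of whole liver, in which more cells of a type and more RNA per cell cannot be told apart. All 6 macrophage markers lay above healthy in STAM-vehicle livers without overlap, where 14.2% of all genes tested did. By edgeR 3 passed (Adgre1, Clec4f and Cd68), where 5.72% of all genes were called higher. The summed level of the 6 macrophage markers was from 196 to 278 CPM in healthy mice. It was from 319 to 568 CPM in STAM-vehicle and from 245 to 508 CPM in STAM-I-BET151 mice. Of 6 hepatocyte markers 0 passed, although all 6 were below healthy in STAM-vehicle livers, and their summed level was from 101763 to 122014 CPM in healthy and from 50657 to 70299 CPM in STAM-vehicle mice. Of the other marker lists, Cd8a of 6 T cell, Csf3r of 4 neutrophil and Col1a1 of 6 stellate cell and fibroblast markers rose in STAM-vehicle livers. None of the B cell, endothelial, cholangiocyte, pancreas or erythroid markers passed there by edgeR. In STAM-I-BET151 against healthy livers, 3 macrophage markers (Clec4f, Cd68 and Csf1r), Csf3r, Col1a1 and Col3a1 were higher. The cholangiocyte marker Krt7 and the pancreas marker Cela2a were also higher, where 9.88% of all genes were called higher. Cela2a had a mean of 1.03 CPM. The stellate cell marker Reln and the erythroid marker Alas2 were lower. Between the STAM groups all 6 T cell markers were lower with I-BET151, and 0 passed by edgeR. For 4 of them the groups did not overlap, where 5.04% of all genes did not. An unadjusted p under 0.05 by edgeR was reached by 4, against 8.68% of all genes. Their summed level was from 4.52 to 5.96 CPM in STAM-vehicle, 2.27 to 3.05 CPM in STAM-I-BET151 and 1.84 to 4.96 CPM in healthy mice. The part of cell composition in the values of Eda2r, Phlda3, Bax and Gdf15 was not tested.

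The sequencing lane, read from the names of the deposited files, was spread unevenly over the groups. A single lane held both a healthy and a STAM-vehicle mouse, and within it 8 of the 9 genes were higher in STAM-vehicle, Eda2r by 4.46, Phlda3 by 1.42 and Bax by 0.45 on the log2 scale, with Trp53 at -0.08, where 49.7% of all genes tested were higher. In the 2 lanes that held a healthy and a STAM-I-BET151 mouse, Eda2r was higher by 5.02 and 5.74, and 8 of the 9 genes were higher in both lanes, Trp53 in one of them by only 0.00044, as were 34.5% of all genes. In the 3 lanes that held both kinds of STAM mouse, Bax and Trp53 were higher with I-BET151 in each, 2 of 9 genes, against 11.9% of all genes. Bax was higher by 0.17 to 0.76 and Trp53 by 0.08 to 0.64, the highest value of Trp53 being in the lane of STAM-I-BET151 mouse 3.

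By likeness of profile over the 12 mice, the gene nearest to Eda2r of 16823 tested was Psrc1, with a root mean square difference of 0.70 in centred log2 CPM, followed by Ifi27l2b, Scn8a, Ttc39a and Gm10032 between 0.71 and 0.78. Eda2r itself varied by 1.86 on this scale. Ifi27l2b had means of 1.93, 26.7 and 20.8 CPM in healthy, STAM-vehicle and STAM-I-BET151 livers. The nearest to Gdf15, which varied by 1.00, were Car9, Grin3b, Mup-ps2, Lrch4 and Rufy4 at 0.31 to 0.36. The means of these 5 genes over the 12 mice lay between 0.360 and 2.86 CPM. Mup-ps2 is a pseudogene of the major urinary protein family, whose near-identical copies share reads, so that its count is uncertain.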

How the data were processed

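Liver RNA of 12 mice was sequenced as stranded, paired-end mRNA libraries. The authors aligned the reads with STAR 2.5.1b to mm10 and deposited 1 table per mouse of raw, whole-number counts of uniquely mapped reads by gene. Methods name htseq-count for this step, while the names of the deposited files contain featuresCounts, so the counting tool is not settled. The annotation release and strand setting are not given in the sources used here. Gene symbols and positions came from GENCODE M21 (GRCm38) and upstream sequences from RefSeq (GRCm38.p6).

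These counts entered edgeR 4.0.16 (R 4.3.3) with TMM normalization, filterByExpr (minimum count 10), and 1 quasi-likelihood fit of the 3 groups with Benjamini-Hochberg adjustment over 16823 genes. Thresholds were an adjusted p of 0.05 for STAM-vehicle against healthy and 0.1 between the STAM groups, as in the study. I-BET151 against healthy, which the study did not test, took 0.05. The SE is the log2 fold change divided by the square root of F. DESeq2 1.42.0, the package the study used, and limma 3.58.1 (voom) were alternatives, with other normalization, filters, thresholds, 2-group fits, replicate block, lane and each mouse left out. DESeq2 without each I-BET151 mouse was added after seeing the data. The fit was tested on simulated data.

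The 9 genes and all lists were chosen with earlier results of these data known. The text names all 9, up to 8 genes per list and comparison that passed (smallest p first), and the 5 nearest profiles of the 2 genes with the widest range. Intervals cover counting and mouse-to-mouse spread only. Replicate pairs of a group differed beyond sampling noise, with a chi-square per degree of freedom from 30.8 to 644.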

Additional observations from a re-analysis of the deposited data

Results flagged for a closer look

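In 27 sets of 4 mice (9 genes in 3 groups), 3 had a mouse set apart from the rest by more than Dixon's 95% critical value for the gap over the range. Chance alone flags about 1 in 20 such sets. Mdm2 stood at 99.8 CPM in STAM-I-BET151 mouse 3, against 40.6 to 49.5 CPM in the other 3. Gdf15 stood at 36.5 CPM in the same mouse, against 5.49 to 10.2 CPM. Bax stood at 24.6 CPM in STAM-vehicle mouse 3, against a tight 19.5 CPM in the others.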

How the results depend on the processing

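Eda2r, Phlda3 and Bax passed against healthy in both STAM groups in every fit that left out 1 mouse, and adjusting for lane left Eda2r alone past the threshold, with log2 fold changes of 1.75 and 2.07 for Phlda3 and 0.58 and 0.99 for Bax. The cause of the changes below was not tested. For STAM-vehicle against healthy, the count of the 9 genes that passed (3) was 6 with the 2 groups alone, 1 with lane, 7 with limma-voom, and 3 to 6 with a mouse left out. The count of the other p53 targets (7) was 14, 1, 16 and 5 to 14, and that of all genes (1195) was 3879, 37, 5672 and 546 to 3779, with 1910 by DESeq2 and 2052 at a threshold of 0.1. For STAM-I-BET151 against STAM-vehicle, limma-voom called 1 of the 9 and 3 other targets, and the count of all genes (59) was 268 by DESeq2, 101 without a filter, 8 with 2 groups, 0 with lane, 1205 by limma-voom, 26 at a threshold of 0.05 and 13 to 403 with a mouse left out. For STAM-I-BET151 against healthy, the count of the 9 (4) was 1 with lane, 7 with limma-voom, 6 at a threshold of 0.1 and 3 to 6 with a mouse left out. The count of other targets (10) was 1 with lane, 15 with limma-voom and 7 to 13 with a mouse left out, and that of all genes (2546) was 1262 with 2 groups, 85 with lane, 4880 by limma-voom, 4162 at a threshold of 0.1 and 1292 to 3731 with a mouse left out.

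DESeq2 without STAM-I-BET151 mouse 1, 2, 3 or 4, chosen after seeing the data, called 1811, 2069, 4369 and 1854 genes, 11, 10, 15 and 11 other targets and 4 to 6 of the 9 for STAM-vehicle against healthy. For STAM-I-BET151 against STAM-vehicle it called 214, 566, 1287 and 218 genes, 0 to 2 other targets and 0 to 1 of the 9. Against healthy it called 4474 genes without mouse 2, 4092 without mouse 3, 9 to 14 other targets and 4 to 6 of the 9.

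None of the log2 fold changes that turned had passed the test. For STAM-vehicle against healthy, Trp53 was -0.14 with lane, and Trp53inp1 was 0.50 with lane and -0.39 to 0.14 with a mouse left out. For STAM-I-BET151 against healthy, Trp53inp1 was 0.042 with lane, and Cdkn1a was -0.44 to 0.61 with a mouse left out, below 0 without healthy mouse 2 (-0.05), healthy mouse 4 (-0.17) or STAM-I-BET151 mouse 4 (-0.47 by DESeq2). For STAM-I-BET151 against STAM-vehicle, Mdm2 was -0.19 and Gdf15 -0.17 by limma-voom. With a mouse left out Mdm2 was -0.24 to 0.25 and Gdf15 -0.26 to 0.87, both lowest without mouse 3 (-0.23 and -0.25 by DESeq2). Eda2r was -0.082 to 0.31 and Phlda3 -0.082 to 0.35, both lowest without mouse 4 (-0.11 and -0.10 by DESeq2).

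With the replicate number as a block, 4, 0 and 4 of the 9 genes and 742, 10 and 1573 of all genes passed in the 3 comparisons in order. Correlations of same-numbered mice were from -0.154 to -0.000871 for STAM-vehicle and healthy, -0.228 to 0.0933 for the STAM groups and -0.351 to -0.0323 for STAM-I-BET151 and healthy, so no pairing was taken from the numbers, although mice 1, 3 and 4 of the STAM groups shared a sequencing lane by number. ATF4 and CHOP targets past the threshold in STAM-vehicle (4) were 2 with the block, 7 with the 2 groups alone or limma-voom. Btg2 in STAM-I-BET151 against healthy (0.12, not passing) was -0.027 with the block, -0.37 to 0.36 with a mouse left out (-0.07 without healthy mouse 4) and -0.41 by DESeq2 without STAM-I-BET151 mouse 4. Requiring 10 counts in every mouse removed Eda2r, which had 1 read in a healthy mouse.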
